A study of Mus musculus with 6 samples.

Results

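The Hox genes are homeobox transcription factor genes that lie in 4 clusters, HoxA, HoxB, HoxC and HoxD, and 39 of them are listed in RefSeq for the mouse. The members described here are the genes whose name is Hoxa, Hoxb, Hoxc or Hoxd followed by a number and that have a probe set assigned to that gene alone. There were 33 such genes among 18193 genes on the array, 9 each in HoxA and HoxB, 7 in HoxC and 8 in HoxD. Where a gene had several probe sets, the one with the highest mean over all arrays stood for it. RNA came from mammary glands of female bitransgenic mice aged 10 weeks or 5 weeks. Mice of both ages were offspring of 2 lines that the labels call LH and MMTV-neu. MMTV-neu mice express the neu (Erbb2) oncogene from a viral promoter that is active mainly in mammary epithelium, and what the LH line carries is not spelled out in the labels. For each age 3 pools of RNA were hybridised, each made from 3 animals, so the spread between animals within a pool is not seen.

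Hox proteins bind AT-rich DNA, often together with PBX, MEIS and PKNOX homeodomain partners, and give cells along the body axis and the limbs their positional identity. Within a cluster the genes are numbered by paralogue group, and low-numbered genes are used towards the head and high-numbered genes towards the tail and the limb tips. In the mammary gland Hox genes act in placement of the mammary buds and later in growth of the ducts and alveoli, in epithelium and in the surrounding stroma. The fibroblasts and fat of adult tissues keep a regional Hox pattern.

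At 10 weeks the stretch of the HoxC cluster from Hoxc4 to Hoxc8 was lower than at 5 weeks. Hoxc4, Hoxc5, Hoxc6 and Hoxc8 all fell, with log2 differences (10 weeks minus 5 weeks) of -2.15, -1.74, -0.77 and -1.70. Hoxb3, Hoxb6 and Hoxd8 fell too, with log2 differences of -0.92, -0.77 and -0.45. No tested Hox gene rose, and the tested genes of paralogue groups 9 to 13 did not pass the test. In all, 7 of the 16 Hox genes bright enough to be tested fell (43.8%), while limma called 18.7% of all 13002 genes tested lower and 15.3% higher at an adjusted p of 0.05. Of the 7, Hoxc4 and Hoxb6 were bright enough only through their 5-week pools. Their 10-week mean signals of 99.4 and 92.1 lay under the cut-off signal of 103. The median log2 difference was -0.34 over the 16 Hox genes and 0.00 over all genes tested. Of the Hox genes, 3 fell by at least 1 on the log2 scale, as did 6.66% of all genes. The count of 0 that rose was also 0 at an unadjusted p of 0.05 by limma, at which 8 were lower. The share of all genes at that threshold was not counted, so the 8 cannot be set against it.

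Promoter sequences of RefSeq (GRCm38.p6) matched 19 of the 33 genes by symbol but only 2 of the 7 that fell, Hoxc4 and Hoxd8. The 250 bases before the annotated start of these are shown with those of Hoxd9, the neighbour of Hoxd8 that did not pass the test, so that both genes of that pair can be read. They lie at chr15:103034145-103034394, chr2:74704365-74704614 and chr2:74697513-74697762, all on the plus strand.
Hoxc4: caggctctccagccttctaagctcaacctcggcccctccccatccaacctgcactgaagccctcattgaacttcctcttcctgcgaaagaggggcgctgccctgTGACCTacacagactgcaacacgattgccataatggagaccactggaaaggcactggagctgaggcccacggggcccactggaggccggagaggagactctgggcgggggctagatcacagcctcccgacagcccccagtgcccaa
Hoxd8: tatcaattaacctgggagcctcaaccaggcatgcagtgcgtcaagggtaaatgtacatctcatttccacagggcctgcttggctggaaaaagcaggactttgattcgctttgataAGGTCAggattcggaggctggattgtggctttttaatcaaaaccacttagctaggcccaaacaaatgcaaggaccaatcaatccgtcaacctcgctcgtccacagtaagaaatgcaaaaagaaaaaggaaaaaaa
Hoxd9: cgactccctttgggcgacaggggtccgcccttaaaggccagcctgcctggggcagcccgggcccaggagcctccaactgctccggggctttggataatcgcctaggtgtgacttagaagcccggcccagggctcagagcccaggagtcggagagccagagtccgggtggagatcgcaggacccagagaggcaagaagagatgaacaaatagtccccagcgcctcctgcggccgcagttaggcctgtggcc
Capitals mark the matches, on either strand, to 4 motifs that were searched: TGATNNAT, the joint site of PBX and Hox proteins; TGACAG, the core of MEIS sites; AGGTCA, the repeated unit of sites for retinoic acid receptors; and TATAAA, the TATA box. Hoxc4 and Hoxd8 each held 1 match to AGGTCA and none to the other motifs, and the Hoxd9 window held no match to any. The same search found AGGTCA before Hoxb4 as well, which did not pass the test, and before Hoxd3 and Hoxd10, which lay under the filter. The motif was thus not confined to genes that fell. AGGTCA occurred in 14% of all 32851 RefSeq promoter windows of this length, TGATNNAT in 7.68%, TGACAG in 15.9% and TATAAA in 12.4%. The G and C content was 62.0% before Hoxc4, 44.4% before Hoxd8 and 65.2% before Hoxd9. A match of letters is not a bound site, and binding was not measured.

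The tissue carried its defining markers. The luminal keratin genes Krt8 and Krt18 and the basal keratin gene Krt5 were bright at both ages, with signals of 5946.4 to 9770.1, 5794.1 to 8672 and 1137.7 to 1594. Array medians were 156.4 to 172.5, and log2 signals correlated at 0.973 to 0.978 within an age and at 0.932 to 0.955 across ages. Skeletal muscle markers, of a tissue that lies beneath the glands, set 10-week pool 1 apart: their 10 summed signals were 6727 in that pool, 50430 and 48259 in the other 10-week pools and 64132 to 113793 at 5 weeks. Lymphocyte markers set 5-week pool 2 apart, with a sum of 6016 against 1587 to 2906 elsewhere. Values without each pool are therefore given where they change a Hox call.

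HoxC held the 3 largest differences among the tested Hox genes. Hoxc4, a gene of the cervical and upper thoracic region, had signals of 79.2, 61.4 and 157.7 at 10 weeks and 610.7, 513.2 and 459.7 at 5 weeks. The ages were far apart, and the highest 10-week value was that of pool 3. Hoxc4 was bright enough to be tested only through its 5-week pools. The mean signal was 99.4 ± 51.2 (SD, n = 3) at 10 weeks, against 528 ± 76.6 (SD, n = 3) at 5 weeks, and the log2 difference was -2.15 ± 0.26 (SE, adjusted p = 0.000512). Hoxc5, its next neighbour, had signals of 109.2, 131.0 and 147.7 at 10 weeks and 360.3, 569.9 and 616.2 at 5 weeks. All 10-week pools again lay below all 5-week pools, and the log2 difference was -1.74 ± 0.21 (SE, adjusted p = 0.000567). Both sizes lean on the offset of 32 that was added to each signal before the logarithm, with -2.50 for Hoxc4 and -1.96 for Hoxc5 at an offset of 1, and -1.68 and -1.40 at an offset of 100.

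Hoxc6, which is known from mouse mutants to be needed for the thoracic mammary glands, had signals of 374.5, 617.7 and 428.1 at 10 weeks and 679.3, 1083.7 and 725.1 at 5 weeks. The highest 10-week pool came close to the lowest 5-week pool, and the ages did not overlap. The log2 difference was -0.77 ± 0.22 (SE, adjusted p = 0.0301), and this call was lost without 10-week pool 1 (adjusted p = 0.0974), without 10-week pool 3 (0.0858), without 5-week pool 2 (0.0827) and with no filter (0.0543). Hoxc8, which acts in placing the embryonic mammary line and restrains brown fat differentiation, had signals of 333.3, 487.3 and 311.8 at 10 weeks. At 5 weeks the signals of Hoxc8 were 1170.3, 1374.7 and 1277.7. The lowest 5-week pool stood far above the highest 10-week pool, and the log2 difference was -1.70 ± 0.17 (SE), with the smallest adjusted p of any Hox gene tested, 0.000226. Without any 1 pool or under any other setting tried, the calls of Hoxc4, Hoxc5 and Hoxc8 held wherever they were tested.

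Hoxc9, the next gene along HoxC, did not pass the test. It is a gene of the lower thoracic region and had signals of 189.5, 196.3 and 166.9 at 10 weeks and 241.4, 133.2 and 202.0 at 5 weeks. The ages overlapped, and the log2 difference was -0.02 with a 95% interval of -0.50 to 0.45 (adjusted p = 0.945). Within each array the log2 ratio of Hoxc8 to Hoxc9 was taken after the offset of 32 was added to each signal. It was 0.72, 1.19 and 0.79 at 10 weeks and 2.14, 3.09 and 2.48 at 5 weeks, a change of -1.67. Every ratio at 10 weeks thus lay below every ratio at 5 weeks, and since the pair was picked with the values known, no test is attached to it. Hoxc10 and Hoxc13, further along the cluster, lay under the filter with signals of 11 to 48.9 in the 6 pools.

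**Figure D1:**
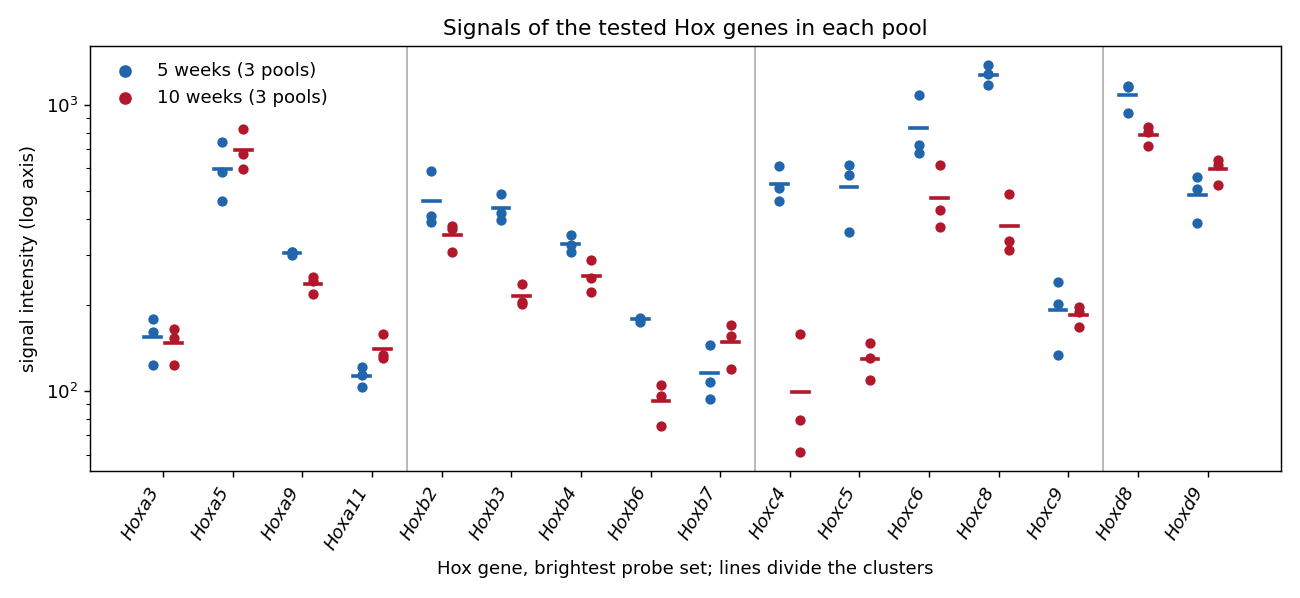
Signal intensity (log axis) of the 16 tested Hox genes, with a point for each pool, blue at 5 weeks and red at 10 weeks, and a bar at the mean of the 3 pools. The 10-week points of Hoxc4, Hoxc5 and Hoxc8 sit well below the 5-week points, while those of Hoxc9 overlap; heights of different genes are not comparable, because each gene has its own probes.

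In HoxB, 2 of 5 tested genes fell, against 18.7% of all genes tested. Hoxb3, a gene of the hindbrain and neck that also acts in vessels, had signals of 205.0, 237.1 and 201.1 at 10 weeks and 420.3, 394.7 and 489.4 at 5 weeks. The ages were clearly apart, and the log2 difference was -0.92 ± 0.15 (SE, adjusted p = 0.00217). Hoxb6 had signals of 104.7, 96.0 and 75.5 at 10 weeks and a narrow 174.6 to 180.2 at 5 weeks. Its log2 difference was -0.77 ± 0.17 (SE, adjusted p = 0.0106). Both of these calls held without any 1 pool and under every other setting that tested them.

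Hoxb2 and Hoxb4 flank Hoxb3 and were lower in all 10-week pools than in all 5-week pools, but neither passed the test. Hoxb2 had signals of 306.2 to 378.6 at 10 weeks and 390.6 to 586.1 at 5 weeks, with a log2 difference of -0.35 and an interval of -0.75 to 0.05 (adjusted p = 0.176). Hoxb4, known for expanding blood stem cells, had 222.1 to 287.0 and 307.1 to 350.0, with -0.34 and an interval of -0.68 to 0.00 (adjusted p = 0.124). When the probe sets of each gene were averaged, Hoxb4 was called lower (-0.41, adjusted p = 0.0385). Hoxb7, which is overexpressed in some breast cancers, had signals of 119.4 to 170.2 at 10 weeks and 94.2 to 144.5 at 5 weeks. These overlapped, and its log2 difference was 0.29 (interval -0.16 to 0.75, adjusted p = 0.312).

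In HoxD, Hoxd8 had signals of 717.6, 837.1 and 802.1 at 10 weeks and 1164.8, 934.6 and 1154.3 at 5 weeks. The ages did not overlap, though 5-week pool 2 came near the 10-week pools. Its log2 difference was -0.45 ± 0.13 (SE, adjusted p = 0.0300), and the call was lost when any 1 pool other than 5-week pool 2 was left out, with adjusted p of 0.0510 to 0.0952. Its neighbour Hoxd9 did not pass the test; it is 1 of 3 group 9 paralogues, with Hoxa9 and Hoxb9, whose joint loss in mice impairs mammary growth in pregnancy. The signals of Hoxd9 were 640.7, 618.8 and 524.8 at 10 weeks and 385.3, 506.2 and 560.9 at 5 weeks, with a log2 difference of 0.29 (interval -0.08 to 0.66, adjusted p = 0.214). The log2 ratio of Hoxd8 to Hoxd9, with 32 added to each signal, was 0.16, 0.42 and 0.58 at 10 weeks. At 5 weeks it was 1.52, 0.84 and 1, and the ages did not overlap. This pair too was picked with the values known, so no test is attached to it.

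In HoxA no tested gene passed on its brightest probe set. Hoxa3, a gene of the pharyngeal arches, had signals of 122.9 to 165.0 at 10 weeks and 123.8 to 178.1 at 5 weeks, and a log2 difference of -0.05 (interval -0.48 to 0.38, adjusted p = 0.862). A dimmer tested probe set of Hoxa3, 1427433_s_at, was lower in all 10-week pools but did not pass by limma (-0.66, adjusted p = 0.0594). Its probe sets under the filter, 1429398_at and 1431392_at, had differences of 0.28 and 0.30. Hoxa9, another of the group 9 paralogues, had signals of 218.2, 243.0 and 250.7 at 10 weeks and 305.8, 299.7 and 305.9 at 5 weeks. Each 10-week pool lay below each 5-week pool, yet the difference of -0.32 ± 0.14 (SE) missed the threshold (adjusted p = 0.117). Hoxa11, a gene of the uterus and the forearm, was the only tested Hox gene with every 10-week pool above every 5-week pool. Its signals were 133.4, 157.8 and 130.2 against 114.3, 121.9 and 103.7, with a difference of 0.25 that did not pass (interval -0.14 to 0.63, adjusted p = 0.312). The ages did not overlap for 10 tested Hox genes in the downward direction and 1 in the upward direction, against 26.3% and 24% of all genes tested.

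**Figure D2:**
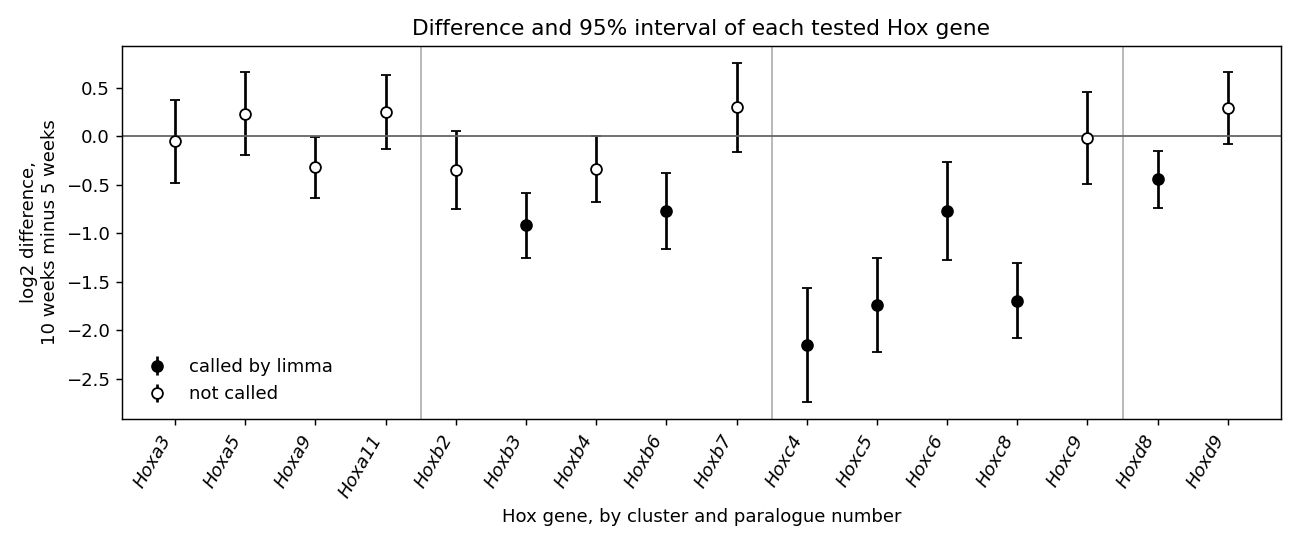
Log2 difference (10 weeks minus 5 weeks) of the 16 tested Hox genes with its 95% interval from limma, filled where called and open where not, with grey lines between clusters. The intervals of Hoxc4, Hoxc5 and Hoxc8 lie wholly below -1, and those of Hoxc9, Hoxd9 and the HoxA genes Hoxa3, Hoxa5 and Hoxa11 cross 0.

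Set out by paralogue group, the falls on the brightest probe sets lay in groups 3 to 8. In groups 1 to 4, 2 of 5 tested genes fell, with a median log2 difference of -0.35. In groups 5 to 8, 5 of 7 fell, with a median of -0.77. In groups 9 to 13, 0 of 4 fell, with a median of 0.11. By cluster, 4 of 5 tested genes fell in HoxC, 2 of 5 in HoxB, 1 of 2 in HoxD and 0 of 4 in HoxA. Over all genes tested, limma called 18.7% lower. Counts of 2 of 5, 1 of 2 and 0 of 4 are too small to be told from that share. Both zeros depend on the choice of probe set, since with the probe sets of each gene averaged Hoxa9 was called lower (-1.03, adjusted p = 0.00572), and a dimmer probe set of Hoxa5, 1448926_at, was also called lower. With no filter Hoxd1, of group 1, and Hoxb5, of group 5, were called lower too, and Hoxd10, of group 10, was called higher. Hoxd1 was dim, at 5.7 to 17.7 at 10 weeks and 32.4 to 35.6 at 5 weeks. Genes of a cluster share their pools and can share regulatory DNA, so these counts are a description of the 16 genes and no test was made of the pattern. Hoxc4 and Hoxb6 passed the filter through their 5-week pools, since their 10-week mean signals of 99.4 and 92.1 lay under the signal of 103 at which the filter stood.

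**Figure D3:**
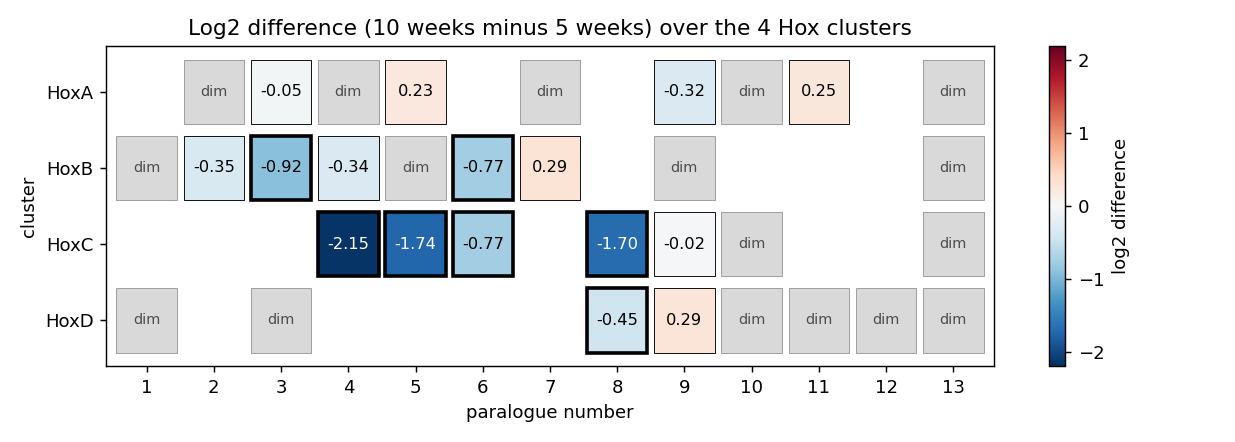
Map of the 4 clusters (rows) by paralogue number (columns), with the log2 difference (10 weeks minus 5 weeks) written in each tested gene and a thick frame around called genes; "dim" marks genes under the filter, and empty places have no single-gene probe set here or no gene. The dark blue run lies in HoxC from Hoxc4 to Hoxc8.

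Beyond these 16 genes, 17 lay under the filter, which dropped the dimmest 40% of probe sets by their mean. Their signals were 2.5 to 135.7 in the 6 pools. They were Hoxa2, Hoxa4, Hoxa7, Hoxa10, Hoxa13, Hoxb1, Hoxb5, Hoxb9, Hoxb13, Hoxc10, Hoxc13, Hoxd1, Hoxd3, Hoxd10, Hoxd11, Hoxd12 and Hoxd13. Hoxb13, a gene of the prostate and hindgut, was at 2.5 to 6.0 in every pool, and Hoxd12, a gene of the limb tips, at 7.0 to 11.6. In this dim set, 4 genes were lower in all 10-week pools than in all 5-week pools and 3 were higher, against 8.53% and 13.5% of the 5191 genes left out in the same way. Of the 3, Hoxa10 was higher only on its brightest probe set, at 63.1 to 77.6 against 45.3 to 61.9. Its other probe set, 1431475_a_at, overlapped at 4.6 to 59.6 and 59.2 to 81.0, with a difference of -0.75.

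Hoxb5 and Hoxd10 stood out among the dim genes, in opposite directions. Hoxb5, which lies between Hoxb4 and Hoxb6, had signals of 14.8, 15.3 and 16.6 at 10 weeks and 65.8, 68.6 and 101.4 at 5 weeks. Hoxd10, which helps breast epithelial cells in culture keep a differentiated form, had 99.0, 120.4 and 112.0 at 10 weeks and 6.5, 22.4 and 27.4 at 5 weeks. It was the dim gene with the largest gap upward, and its 10-week signals were near the signal of 103 at the filter while its 5-week signals were far under it. When no filter was used, limma called Hoxb5 lower (log2 difference -1.20 ± 0.19 SE, adjusted p = 0.00430), Hoxd10 higher (1.51 ± 0.22 SE, adjusted p = 0.00325) and Hoxd1 lower (-0.57 ± 0.16 SE, adjusted p = 0.0432). Without the filter, 24.2% of the 33 Hox genes were thus called lower and 3.03% higher, against 12.3% and 10.2% of 18193 genes.

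Hoxb9, the group 9 gene of HoxB, had signals of 74.4, 117.5 and 114.3 at 10 weeks and 31.4, 12.7 and 68.9 at 5 weeks. Its difference without the filter was 1.01 ± 0.32 (SE, adjusted p = 0.0694). Hoxa4 had 42.7, 11.8 and 79.7 at 10 weeks and 90.3, 128.2 and 135.7 at 5 weeks, with -1.06 ± 0.34 (SE, adjusted p = 0.0772). Both sets of ages were apart, and neither gene passed. The group 9 paralogues therefore pointed different ways on their brightest probe sets, with Hoxa9 lower in value, Hoxb9 and Hoxd9 higher and Hoxc9 near 0 (-0.02), none of them called.

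Several probe sets of 1 gene gave different sizes, and in HoxA different directions. Of the 33 genes 11 had more than 1 probe set, and 22 probe sets of members were bright enough to test, of which 11 were called lower and 0 higher, against 15.3% of all 27022 probe sets called lower. Hoxa5, which can activate the p53 gene and is silenced in many breast tumours, was the clearest case. Its brightest probe set, 1443803_x_at, had signals of 597.9, 671.7 and 824.0 at 10 weeks and 459.9, 744.3 and 583.4 at 5 weeks, which overlapped (log2 difference 0.23, interval -0.20 to 0.66, adjusted p = 0.396). The other, 1448926_at, had 152.4, 163.1 and 238.6 at 10 weeks and 448.9, 437.3 and 357.2 at 5 weeks, a difference of -1.06 ± 0.19 (SE, adjusted p = 0.00344). The ending x_at is given on these arrays to probe sets whose probes can also match other transcripts.

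For the genes that fell, the other tested probe sets fell as well. The log2 difference was -0.53 for Hoxb3 on 1427605_at, -0.89 for Hoxc6 on 1427361_at and -1.37 for Hoxd8 on 1433638_s_at. The Hoxd8 signals of 1433638_s_at were 163.0, 460.9 and 227.4 at 10 weeks and 712.7, 603.7 and 874.2 at 5 weeks. The ages did not overlap, though 10-week pool 2 stood well above the other 10-week pools and nearer the 5-week pools. The Hoxc6 call of 1427361_at had an adjusted p of 0.00310, against 0.0301 for the brightest, which carries the ending x_at. The remaining Hoxc6 probe set, 1427454_at, was dim and overlapped between ages at 11.1 to 67.5 and 17.7 to 135.3. A dim probe set of Hoxc5, 1450832_at, had signals of 8.3, 10.7 and 45.8 at 10 weeks and 155.0, 174.1 and 150.9 at 5 weeks. The last Hoxc5 probe set, 1456301_at, overlapped between ages at 42.3 to 117.7 and 70.7 to 106.6. For Hoxa9 the dimmer 1455626_at had 6.0, 37.6 and 59.4 at 10 weeks and 162.6, 143.3 and 229.6 at 5 weeks, a wider gap than the brightest one. With the probe sets of a gene averaged, the value of Hoxd8 became -0.91.

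**Figure D4:**
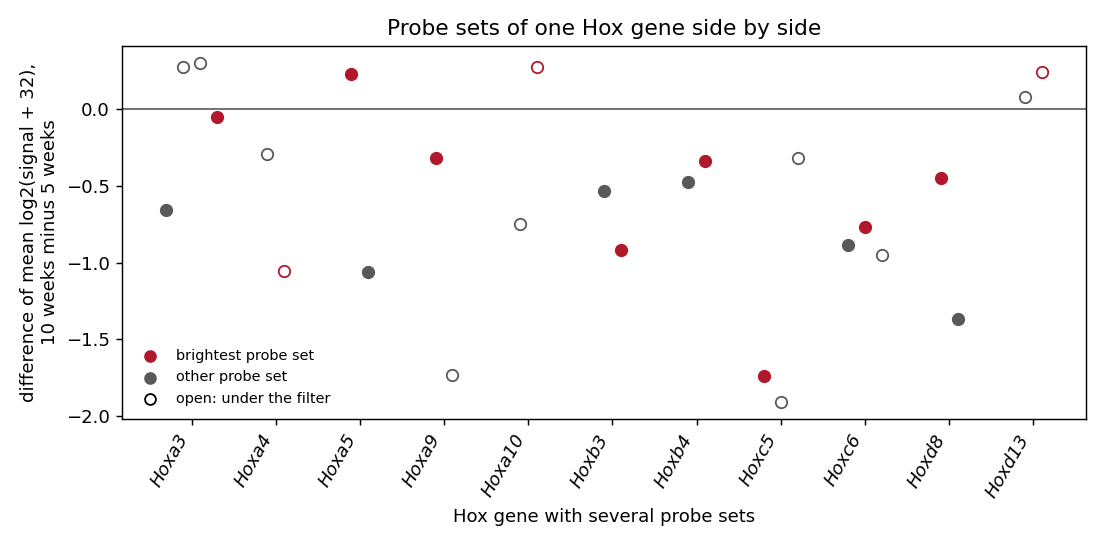
Difference of the age means of log2(signal + 32), 10 weeks minus 5 weeks, for each probe set of the 11 Hox genes with several, red for the brightest and grey for the others, open where the probe set lay under the filter. The Hoxa5 probe sets lie on opposite sides of 0, while those of Hoxb3, Hoxb4, Hoxc5, Hoxc6 and Hoxd8 all lie below it.

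Partners and regulators of the Hox genes were read in the same fit, as lists, whose counts stand beside the 18.7% of all tested genes called lower and the 15.3% called higher. Of 7 tested cofactor genes, 2 fell (28.6%, less than 1 gene from the share over all genes) and 0 rose, with a median log2 difference of -0.34. Pknox2, a partner homeodomain gene, had signals of 192.0, 182.7 and 200 at 10 weeks and 519.1, 466.0 and 662.1 at 5 weeks, a log2 difference of -1.37. Meis2, another partner, fell by 1.33, while Pbx2 (-0.16) and Pknox1 (-0.04) did not pass. Of 23 Polycomb and trithorax genes, which keep Hox clusters silent or active, 2 rose, 2 fell and 19 did not pass, which is 8.7% in each direction and below the shares over all genes, with a median of -0.04. Bmi1 rose by 0.51 and the demethylase gene Kdm6a by 0.33, while Phc1 fell by 0.54 and Cbx6 fell by 0.43. Only the Bmi1 call held without every single pool, and the highest adjusted p of the others was 0.106 for Kdm6a, 0.0734 for Phc1 and 0.0854 for Cbx6. Ezh2 and Eed, of the complex that writes the silencing mark, had differences of -0.04 and 0.03 that did not pass.

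Of 9 tested genes of retinoic acid signalling, a known inducer of Hox genes, 2 fell (22.2%, near the 18.7% of all genes) and 0 rose, with a median of -0.57. Aldh1a3, which makes retinoic acid, and the receptor gene Rara both fell by 0.94. Rara passed the filter only through its 5-week pools, with mean signals of 89.1 at 10 weeks and 191.1 at 5 weeks. Its call was lost in 4 of the 6 fits that left a pool out (adjusted p up to 0.12), 10-week pool 2 and each 5-week pool, and its difference was -0.60 without 10-week pool 2. Of 22 tested homeobox, T-box and Zeb genes outside the clusters, 14 fell (63.6%) and 2 rose (9.09%), with a median of -0.85. Of the 14, 3 passed the filter only through their 5-week pools, Emx2, Tbx2 and Msx2, with 10-week mean signals of 56.7, 61.6 and 65.2. The calls of Tshz1 and Tshz3 were each lost in 5 of the 6 fits that left a pool out (adjusted p up to 0.111 and 0.105), and the other 14 of the 16 calls held wherever they were tested in those fits. Prrx1, a gene of limb and skin mesenchyme, had signals of 462.4, 543.5 and 602.0 at 10 weeks and 1825.7, 1989.5 and 1657.9 at 5 weeks, and fell by 1.71. Tshz2 fell by 1.43, and Irx5 and Irx3, which lie beside each other, rose by 1.17 and 0.97. These lists were chosen with earlier results of these data known, and they carry no test as lists.

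**Figure D5:**
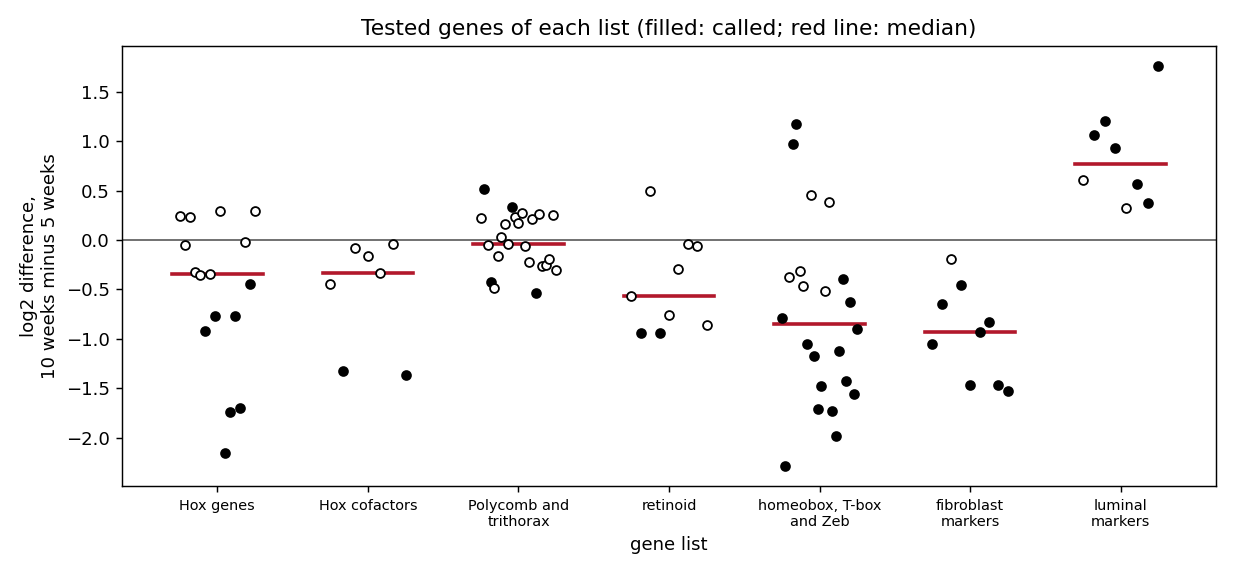
Log2 difference (10 weeks minus 5 weeks) of each tested gene of 7 lists, filled where called, with a red line at the list's median. Medians lie at -0.34 for the Hox genes, -0.34 for the cofactors, -0.04 for Polycomb and trithorax genes, -0.57 for retinoid genes, -0.85 for the other homeobox, T-box and Zeb genes, -0.93 for fibroblast markers and 0.77 for luminal markers.

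Markers of cell types moved between the ages beside the Hox genes. The counts of marker calls are to be read beside the 18.7% of all tested genes called lower and the 15.3% called higher. Of 9 tested fibroblast markers 8 fell, and their summed signal was 51767 to 55622 at 10 weeks and 77325 to 91002 at 5 weeks. Of 6 endothelial markers 5 fell, with sums of 3596 to 4153 and 6194 to 7267. Of 7 adipocyte markers 4 fell, with sums of 47494 to 58510 and 56853 to 73381 that overlapped. Of 10 skeletal muscle markers 3 fell, each call being lost without 5-week pool 1 or 5-week pool 3, and that of Myh2 also without 10-week pool 1 (highest adjusted p 0.0761 for Casq1, 0.11 for Myh2 and 0.112 for Mylpf). Yet all 10 muscle markers were lower in every 10-week pool than in every 5-week pool, against 26.3% of all genes tested. Their median log2 difference was -2.14, and their signals varied widely between pools of an age. Of 8 luminal markers 6 rose, with sums of 56586 to 64300 and 30381 to 38392, and of 6 basal markers 3 rose and 1 fell, with sums of 20694 to 22188 and 17502 to 18678. With 1 pool left out, the call of Krt8 was lost in 5 of 6 fits (adjusted p up to 0.125), that of Kdr, an endothelial marker, in 4 (up to 0.0759) and that of Acta2, a basal marker, in 3 (up to 0.0684). None of 7 lymphocyte markers was called. No marker of these lists was at 0, and their part in the Hox differences was not tested. In whole glands fewer cells of a type and less RNA per cell cannot be told apart. Leaving out 10-week pool 1, the pool lowest in muscle markers, left Hoxc4 at -2.06, Hoxc5 at -1.64 and Hoxc8 at -1.63. The muscle sums of the other 10-week pools, 50430 and 48259, still lay below those of 5 weeks (64132 to 113793). The part of muscle in the Hox differences was thus not tested by that fit. Leaving out 5-week pool 2, the pool highest in lymphocyte markers, left Hoxc4 at -2.17, Hoxc5 at -1.65 and Hoxc8 at -1.64, all of them called in both fits. Hoxb3 and Hoxb6 were called in both as well, while Hoxc6 lost its call in both (adjusted p = 0.0974 and 0.0827) and Hoxd8 lost its call without 10-week pool 1 (0.0946).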

How the data were processed

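The authors deposited a linear signal intensity for each probe set of each array, and a test on the values showed a trimmed mean of 500 on every array. Per the labels, total RNA was labelled with biotinylated UTP. The signal algorithm is not given in the sources used. Genes were named through the platform annotation and updated by gene identifier in RefSeq. Control probe sets (64 of 45101) were left out, signals were floored at 1, and an offset of 32 was added before log2, so differences of dim genes are understated. The dimmest 40% of probe sets by mean were dropped. limma 3.58.1 in R 4.3.3 (lmFit, eBayes with a variance trend) was fitted to the other 27022 with age alone, two-sided, with Benjamini-Hochberg adjustment over all of them, and was tested on simulated data. Replicate numbers follow accession order and pair no pools. P-values set the age difference against the spread between pools, moderated by limma over all fitted probe sets, and the number of pools limits the precision. A permutation of 3 against 3 pools cannot give a p under 0.1.

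The members and lists were chosen with earlier results of these data known. Named genes are every Hox gene, the 2 smallest adjusted p in each direction of each related list (uncalled partners, Ezh2, Eed, Krt genes and genes named for a lost call or the filter were added after their values were seen), and summed marker lists. Alternatives changed the offset, filter, normalization, variance model, array weights and probe set choice, and left out each pool. Figures were made in Python 3.11.15 (matplotlib 3.10.9).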

Additional observations from a re-analysis of the deposited data

How the results depend on the processing

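The count of Hox genes that fell was 7 of 16, and 5 to 6 of 16 with any 1 pool left out, against 14.4% to 15.7% of all genes. The Hox count was 8 of 33 with no filter (12.3% of all genes) and 5 of 10 with the dimmest 60% dropped (21.3%). With probe sets averaged it was 7 of 11 (18.7%), with 5 of the main calls kept and Hoxa9 and Hoxb4 new. Under the remaining settings it stayed at 7 of 16, against 17.2% to 18.9%. The count of Hox genes that rose was 0 in each of these fits except with no filter, where it was 1, Hoxd10. Direction turned only for genes that were not called. Hoxa3 ran from -0.18 to 0.049 and Hoxc9 from -0.23 to 0.13 with 1 pool left out, Hoxc9 was 0.0057 with quantile normalization, and Hoxa5 was -0.41 with its probe sets averaged. With 1 pool left out, Hoxc6 ran from -0.96 to -0.57 and Hoxd8 from -0.55 to -0.38. Detection calls were not used here, so how far dim signals stand above background is unknown. No paired analysis was possible because the labels give no replicate numbers.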

Other observations

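Probe sets that name 2 Hox genes, or the antisense transcripts of the clusters, belong to no member. The probe set shared by Hoxb8 and Hoxb7 had signals of 136.6, 39.2 and 80.9 at 10 weeks and 219.0, 86.6 and 64.7 at 5 weeks, which overlapped. Both probe sets shared by Hoxd4 and Hoxd3 lay under the filter, 1 of them at 33.9 to 54.2 and 39.6 to 63.5. Hoxd3os1, a transcript beside Hoxd3, was read by a pair of tested probe sets that differed in sign, with log2 differences of -0.35 on 1460056_at and 0.32 on 1430263_at, and neither passed the test. Hoxb5os had a difference of -0.32 (adjusted p = 0.389), and Hoxa11os lay under the filter at 1.6 to 49.5 over its probe sets.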
